A study of Mus musculus with 2 samples.

Results

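The 52 genes described here build and control the mitotic spindle: kinetochore and centromere proteins, spindle motors, checkpoint proteins, mitotic kinases and the cytokinesis machinery. They were taken from a fixed list of symbols, which was chosen with earlier results of these data known. All 52 had a row in the table of 28592 genes, 1 of them (Sgo1, listed under its older symbol Sgol1) through a RefSeq synonym. The RNA came from E14TG2a mouse embryonic stem (ES) cells, an established Hprt-deficient line, kept in the naive ground state with inhibitors of MEK and GSK3 and leukaemia inhibitory factor (2i/LIF). There was 1 group with 2 replicates and no second condition, so genes are set beside each other within this cell state, and nothing is tested. Libraries were stranded and made from total RNA after ribosomal RNA removal. Levels are FPKM, fragments scaled to transcript length and to the mapped fragments of the library, as the authors deposited them. Nothing in the labels ties the replicates to separate cultures, and how far they differ may reflect technical variation alone.

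At mitosis each chromosome is held by its kinetochore, a layered protein assembly built on the centromere. The inner layer sits on nucleosomes that contain the histone variant CENP-A, and the outer layer, with the NDC80 complex at its core, grips spindle microtubules. A kinetochore without a proper attachment keeps the spindle checkpoint active: MAD and BUB proteins hold back Cdc20, the activator of the anaphase-promoting complex (APC/C), until all chromosomes are attached. The APC/C then marks securin for destruction, separase cuts cohesin, and motors and bundling proteins of the spindle midzone position the cleavage furrow. Mouse ES cells divide fast, and transcripts of most mitotic genes are known to be highest in G2 and M phase. The share of these cells in each phase is not given. A bulk library averages over all phases, so fewer cells in mitosis and less RNA per mitotic cell cannot be told apart.

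Every member was detected. All 52 genes reached an FPKM of at least 1 in both replicates (called detected), against 39.4% of all genes in the table. Their median level was 42.1 FPKM (41.8 and 42.4 in replicates 1 and 2), against 13.5 FPKM for the 10281 detected genes that RefSeq types as protein coding. At least 10 FPKM in both replicates was reached by 50 of the 52, against 57.2% of detected coding genes. For 25 FPKM the numbers were 37 members (71.2%), against 32.5%, and for 50 FPKM they were 20 members (38.5%), against 17.8%. The top of the range held no such excess, with 3 members (5.77%) at 100 FPKM or more, against 8.85% of detected coding genes. The members thus filled the middle and upper part of the distribution, and 48 of them stood above the median of detected coding genes. The 4 below it were Cenpk, Aurkc, Espl1 and Cenpl.

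**Figure D1:**
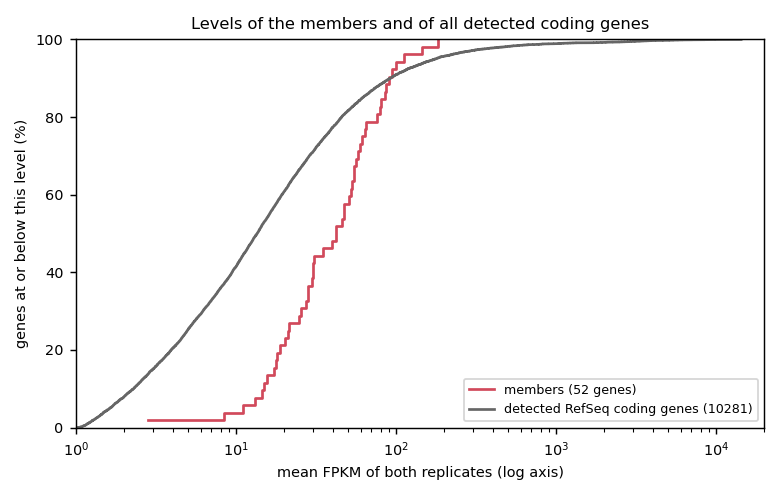
Cumulative distribution of the mean FPKM of both replicates (log axis) for the 52 members (red) and the 10281 detected RefSeq coding genes (grey). The red curve lies to the right over most of its course, with a median of 42.1 against 13.5 FPKM, and crosses the grey curve between 50 and 100 FPKM.

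The highest member was Zwint, an outer kinetochore protein that binds the scaffold Knl1, with 181 and 184 FPKM in replicates 1 and 2. Cdc20 followed with 141 and 148, and Spc24, a subunit of the NDC80 complex, with 116 and 107. Each of these 3 genes was clear of the next in both replicates. At the other end Cenpl, an inner kinetochore subunit, had 2.66 and 2.92 FPKM, and highest and lowest member differed 65.4-fold. Of the 51 neighbouring pairs in the order of means, 26 had overlapping replicate values, so the order of neighbours in the crowded middle, such as Bub1, Pttg1, Ckap5, Cdca8, Tpx2 and Knstrn, is not resolved.

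**Figure D2:**
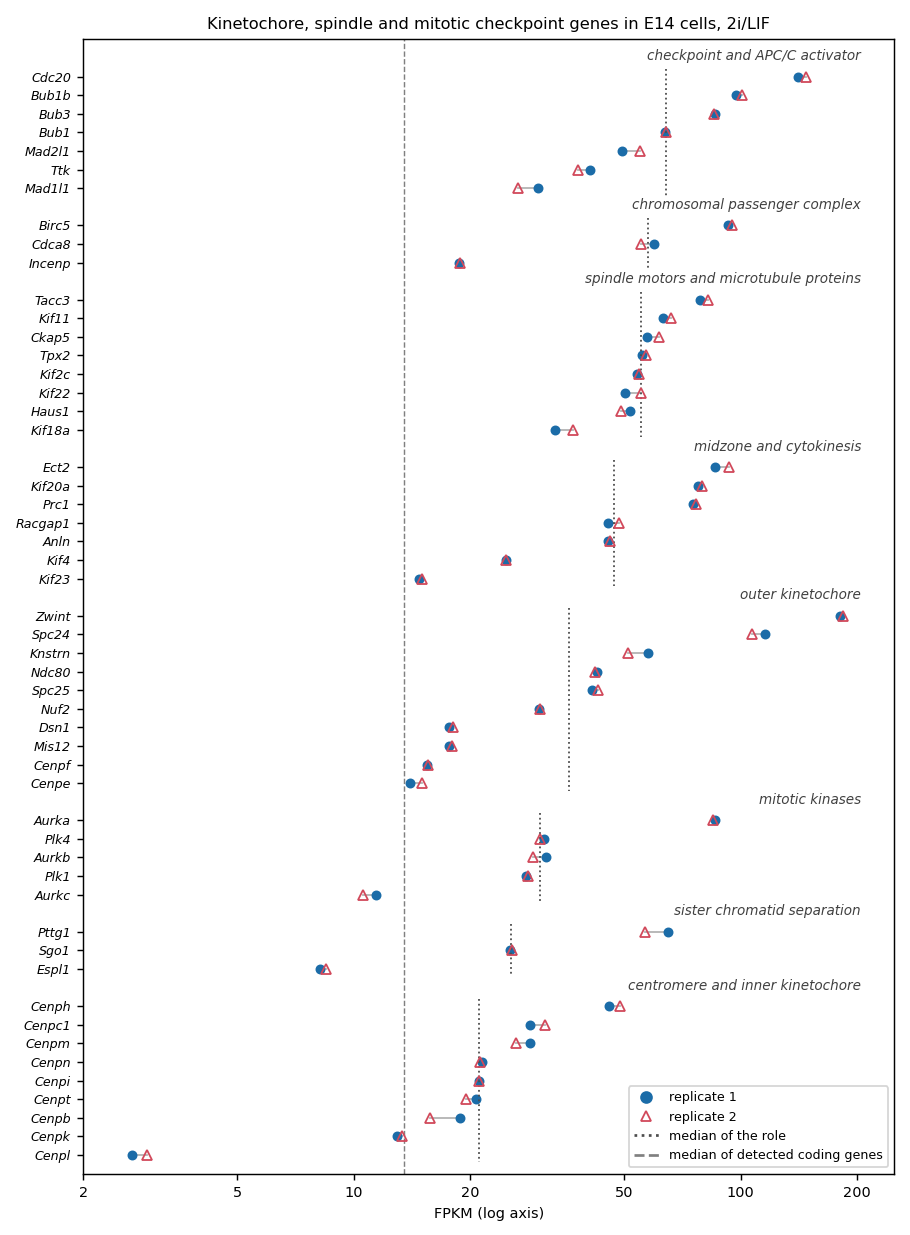
FPKM (log axis) of each member in replicate 1 (filled circles) and replicate 2 (open triangles), grouped by role, with the median of each role dotted and the median of detected coding genes (13.5 FPKM) dashed. The roles run from checkpoint genes (Cdc20 counted among them), with a median of 64.1 FPKM, down to inner kinetochore genes at 21.1 FPKM. In every role the distance from its highest to its lowest member exceeds the distance between the replicates of any member.

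The replicates gave nearly the same values for these genes. The median absolute log2 ratio of replicate 2 to replicate 1 was 0.054 over the members, against 0.082 over the 8334 other detected coding genes within the members' range of levels. The other genes were not matched to the members by level within that range, and the part of level in the difference was not tested. In all, 35 of 52 members were within 0.1 log2 units of equality (67.3% of them), against 58.1% of those other genes. The ratios ran from -0.26 for Cenpb, which had 18.8 and 15.7 FPKM, to 0.15 for Kif18a, which had 33.2 and 36.9 FPKM. Higher values in replicate 2 were seen for 33 of 52, against 48.8% of detected genes, and the median ratio was only 0.022 in log2.

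**Figure D3:**
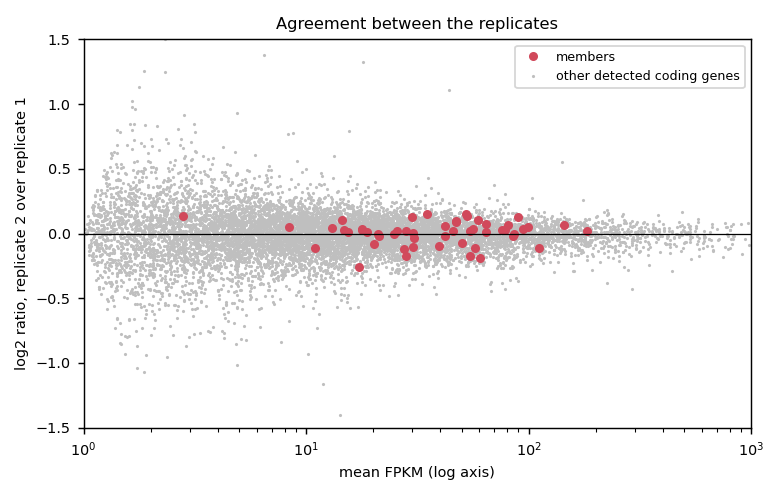
Log2 ratio of replicate 2 to replicate 1 against mean FPKM (log axis) for the members (red) and the other detected coding genes (grey); 115 grey genes lie outside the axes. The members stay between -0.26 and 0.15, while grey genes of low level spread wider.

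The cells carried the markers of their label. The pluripotency factors Pou5f1 and Zfp42 had mean levels of 976 and 382 FPKM, with Sox2 at 168 and Esrrb at 94.6, and 5 of 5 such markers were detected. Of 7 fibroblast markers none was detected (Col1a2 and Col3a1 were highest at means of 0.464 and 0.428, Thy1 and Postn lowest at 0.221 and 0.0404). Their summed level was 0.705 FPKM in replicate 1 and 3.09 FPKM in replicate 2, and its part in the members' values was not tested. FPKM summed to 946498 in replicate 1 and to 928174 in replicate 2. The number of reads is not known.

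Many promoters of these genes held the same short sequence elements. Cell cycle genes of the G2 and M phases are known to carry a cell cycle homology region, the letters TTTGAA or TTCGAA close to the start of transcription, which the DREAM and MuvB protein complexes recognise, often with upstream CCAAT boxes bound by the factor NF-Y. RefSeq promoter windows of 300 bases (250 before the start and 50 after it, GRCm38.p6) were at hand for 46 of the 52 members, without Aurkb, Incenp, Spc24, Tpx2, Haus1 and Kif20a. Searched on both strands, the windows of 26 of the 46 (56.5%) held TTTGAA or TTCGAA, against 21.7% of 27025 genes with a window and 16.6% of the 8628 detected genes among them. The share of members was 37.0% on the strand of the gene alone, against 13.2% of all genes, and 23.9% in the 150 bases before the start alone, against 11.2% of all genes. CCAAT was present for 31 of 46 (67.4%), against 41.1% of all genes and 44.6% of detected genes. The letters TATAAA of the TATA box were found for 2 of 46 (4.35%, Cenpk and Kif2c), against 15.7% of all genes and 7.82% of detected genes. Both TTTGAA or TTCGAA and CCAAT occurred for 23 of 46 (50%), against 9.65% of all genes. TTCGAA is its own reverse complement and was counted once, and neighbouring matches of different words could share an end letter, which none did in the stretches printed. A match is a string of letters and not a mapped binding site, and a missing match says only that the letters are not in this window.

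Most matches of the members lay close to position 0, the RefSeq start on which a window is built. Within 50 bases on either side of it, a window chosen after the positions were seen, TTTGAA or TTCGAA was present for 23 of 46 members (50%), against 6.12% of all genes and 4.49% of detected genes. Per 100 windows the members had 32.7 matches beginning in the 50 bases from position 0 on and 17.3 in the 50 bases before, against 2.52 and 3.04 over all windows. Some genes have several windows that overlap, so that a site in Ect2, Prc1 or Bub3 was counted more than once. With the most upstream window of each gene alone, a choice made after the data were seen, the values were 34.8 and 17.4 for the 46 members, against 2.47 and 3.09 over 27025 genes. Further upstream, in the 4 steps of 50 bases between 250 and 50 bases before the start, members had 1.92 to 5.77 matches per 100 windows, against 3.58 to 4.52 over all. CCAAT matches sat a little higher up, with 40.4 per 100 windows in the last 50 bases before the start and 34.6 in the 50 bases before those, against 9.72 and 13.8. The median GC content was 58.8% for the windows of members, against 52.7% for all windows and 60.7% for those of detected genes, and the part of base composition in the match rates was not tested.

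**Figure D4:**
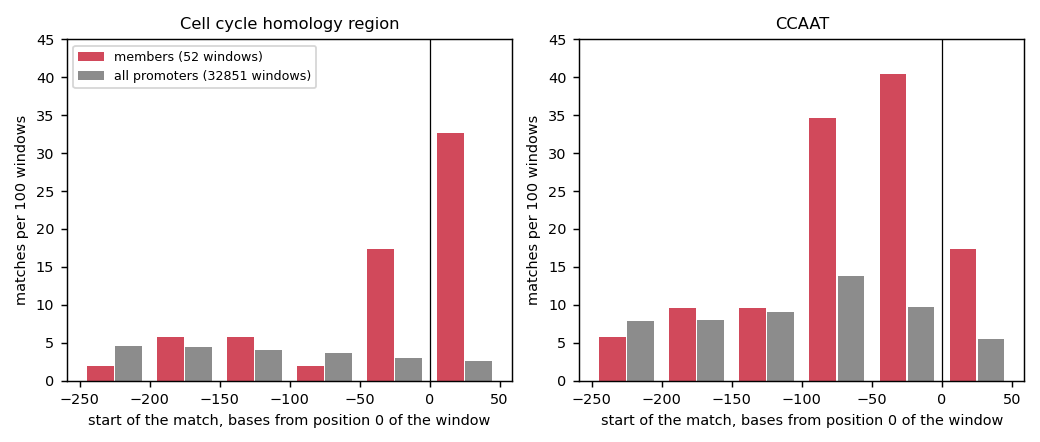
Matches per 100 promoter windows in steps of 50 bases from position 0 (the RefSeq start of the window) for the cell cycle homology region (left panel) and CCAAT (right panel), in the 52 windows of members (red) and all 32851 windows (grey). Red bars stand far above grey ones from -50 to 50 for the homology region (17.3 and 32.7 matches) and from -100 to 0 for CCAAT (34.6 and 40.4 matches).

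The stretches below show the homology region of 7 members with central roles, 30 bases each, read 5′ to 3′ on the strand of the gene. Capitals mark TTTGAA or TTCGAA, and CCAAT or its reverse complement ATTGG. They lie at chr7:122159453-122159482 (Plk1, plus strand), chr2:172370521-172370550 (Aurka, minus), chr4:118437344-118437373 (Cdc20, minus), chr2:127831828-127831857 (Bub1, minus), chr17:53689271-53689300 (Sgo1, minus), chr9:61946780-61946809 (Kif23, minus) and chr15:102296254-102296283 (Espl1, plus) of GRCm38.p6.
Plk1: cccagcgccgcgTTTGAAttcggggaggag
Aurka: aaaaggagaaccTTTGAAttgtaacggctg
Cdc20: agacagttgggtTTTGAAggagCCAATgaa
Bub1: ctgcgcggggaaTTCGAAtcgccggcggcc
Sgo1: gtaacgcagaatTTCGAAtgtggcggcggt
Kif23: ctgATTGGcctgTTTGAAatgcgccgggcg
Espl1: tcactagggataTTTGAAaggaggtgctgg

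In Cdc20 the match began at position -18 with CCAAT at -8, in Espl1 at -27, and in Plk1, Aurka, Bub1, Sgo1 and Kif23 at 30, 32, 14, 27 and 2, counted from position 0 of the window. For Aurka, Sgo1, Kif23 and Espl1 the RefSeq span of the gene begins 316, 2016, 11 and 39 bases before that position. For Plk1, Bub1 and Cdc20 the span begins at position 0. The matches thus lie within the span of the gene, except that of Cdc20, which lies before it. The TTTGAA of Plk1, Aurka, Cdc20, Kif23 and Espl1 read in the direction of the gene, and TTCGAA reads alike on both strands. These genes ranged in level from Espl1 with 8.20 and 8.49 FPKM to Cdc20 with 141 and 148 FPKM, so the presence of the letters did not go with a single level. Over members, the median was 46.3 FPKM with the homology region and 29.99 FPKM without it, and over detected genes with a window it was 15.3 and 13.0 FPKM, which is given as a description only.

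Stretches of 100 bases that end just before the RefSeq span of the gene show members that differ in these letters. They run from -100 to -1 for Kif11 and Zwint, from -115 to -16 for Ckap5 and from -138 to -39 for Aurkc, since the spans of Ckap5 and Aurkc begin 15 and 38 bases before position 0. Kif11 and Ckap5 held both elements, with the homology region on the opposite strand (TTCAAA), Zwint held CCAAT alone, and the printed stretch of Aurkc held neither, although its window had CCAAT after the start. They lie at chr19:37376282-37376381 (Kif11), chr2:91526647-91526746 (Ckap5), chr10:72654746-72654845 (Zwint) and chr7:6995247-6995346 (Aurkc), all on the plus strand.
Kif11: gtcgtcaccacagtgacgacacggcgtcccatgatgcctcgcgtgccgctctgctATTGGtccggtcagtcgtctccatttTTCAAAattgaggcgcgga
Ckap5: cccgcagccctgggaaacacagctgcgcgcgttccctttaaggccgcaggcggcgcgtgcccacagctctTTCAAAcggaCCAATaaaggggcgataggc
Zwint: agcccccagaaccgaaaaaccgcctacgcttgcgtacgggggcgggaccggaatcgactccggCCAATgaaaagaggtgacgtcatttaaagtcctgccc
Aurkc: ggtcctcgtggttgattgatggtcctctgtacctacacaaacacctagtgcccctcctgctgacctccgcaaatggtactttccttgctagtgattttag

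The homology region was counted by role, and no difference between roles was tested. Midzone and cytokinesis genes with a window had it in 6 of 6 cases and spindle genes in 4 of 6. Checkpoint genes, with Cdc20 counted among them, had it in 5 of 7 (not in Mad2l1 and Mad1l1). Inner kinetochore genes had it in 3 of 9 (Cenpl, Cenpm and Cenpn) and outer kinetochore genes in 3 of 9 (Ndc80, Spc25 and Cenpf). Passenger complex genes had it in 1 of 2 and separation genes in 2 of 3. Of the kinases with a window, Plk1 and Aurka had it and Plk4 and Aurkc did not. Of the 12 members with neither element, Birc5, Tacc3 and Pttg1 were highest, with mean levels of 93.9, 80.5 and 60.8 FPKM. The lowest of them was Cenpb at 17.3 FPKM. Some windows lie wholly inside the RefSeq span of their gene. Among these are the only windows of Pttg1 and Cenpt, which had neither element, and of Kif2c, which had the homology region and TATAAA. For Pttg1 the window covers 43425932 to 43426231 on chromosome 11, in a span of 43420244 to 43427463. Such windows do not cover the outermost start of the gene.

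Among the mitotic kinases (role median 30.2 FPKM), Aurora A stood out. Aurka (chromosome 2, 172356190 to 172370886), which matures centrosomes and builds the spindle poles, had 85.9 and 84.7 FPKM. Its span shares 242 bases with Cstf1 (mean 35.0 FPKM) on the opposite strand, and the part of that overlap in its value was not tested. Aurkb, the Aurora kinase of the chromosomal passenger complex, had 31.3 and 29.1 FPKM, and Aurkc, its close relative known mainly from mouse oocytes and spermatocytes, had 11.4 and 10.6 FPKM. The 3 Aurora genes did not overlap in either replicate: Aurka was 2.74-fold and 2.91-fold above Aurkb, and Aurkb was 2.75-fold above Aurkc in both. Aurka also exceeded Plk1 (27.8 and 28.2 FPKM), the polo kinase that acts from mitotic entry to cytokinesis, by 3.04-fold (ratio of means). Plk4, the kinase that starts centriole duplication, had 31.1 and 30.3 FPKM, about the level of Aurkb, whose replicate values overlapped with it. Of 13 oocyte and meiotic markers 4 were detected, with a summed level of all 13 of 36.4 FPKM in replicate 1 and 33.8 in replicate 2, and the part of such cells in the level of Aurkc was not tested. Sycp3 and Rec8 were highest at means of 16.3 and 10.3 FPKM, and Zp2 and Bmp15 were listed at 0. Aurkc and Aurkb are close paralogs, so the division of reads between them is uncertain.

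The chromosomal passenger complex corrects wrong attachments and later moves to the midzone. Its subunits had unequal levels (median of the 3 counted here without Aurkb, 57.5 FPKM). Birc5 (survivin), which docks the complex at centromeres, had 92.8 and 95 FPKM, and Cdca8 (borealin), its partner, had 59.7 and 55.3. The scaffold Incenp, which binds and activates the kinase, was lowest at 18.7 and 18.9 FPKM, below Aurkb. The order Birc5, Cdca8, Aurkb, Incenp was the same in both replicates, with Birc5 4.97-fold and 5.03-fold above Incenp.

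Checkpoint genes had the highest median of the 8 roles, 64.1 FPKM (63.9 and 64.3 in replicates 1 and 2). Cdc20, the target of the checkpoint, was counted in this role as the APC/C activator. The median without Cdc20 was not computed, so whether the role would stay highest is not shown. Bub1b, which encodes BubR1, a part of the complex that inhibits Cdc20, had 97.3 and 101 FPKM. Bub3, the shared partner of Bub1 and BubR1, had 86.0 and 85.5 FPKM, and the kinase Bub1 had 63.9 and 64.3. These 3 did not overlap with each other. The MAD proteins were lower: Mad2l1, which binds Cdc20 directly, had 49.5 and 55.0 FPKM, and Mad1l1, its receptor at the kinetochore, 29.9 and 26.6. Ttk, the kinase Mps1 that starts checkpoint signalling, lay between them at 40.7 and 38.1 FPKM. Their target Cdc20 was 1.45-fold and 1.47-fold above Bub1b. Fzr1 (Cdh1), the other APC/C activator, which works in late mitosis and G1, had 19.4 and 17.1 FPKM, so that Cdc20 exceeded it 7.28-fold and 8.66-fold.

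Genes of chromatid separation spanned a wide range. Pttg1 (securin), which blocks separase, had 64.8 and 56.8 FPKM, while Espl1 (separase) had 8.20 and 8.49, the next to lowest of all members. The transcripts of inhibitor and enzyme thus differed 7.91-fold in replicate 1 and 6.69-fold in replicate 2, and the proteins were not measured. Sgo1 (shugoshin), which guards centromeric cohesin until anaphase, had 25.3 and 25.7 FPKM, against 33.4 and 33.9 for Sgo2a, a shugoshin outside the list.

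Among the members, inner kinetochore and centromere genes had the lowest median of all roles, 21.1 FPKM, 3.04-fold below the checkpoint genes. Further genes of the pathway, outside the list of members, did not keep the order of roles. The 13 further centromere and inner kinetochore genes had a median of 26.8 FPKM. The median was 23.5 FPKM for 10 further outer kinetochore genes and 20.5 FPKM for 24 further spindle and centrosome genes. Cenpc1, which links CENP-A nucleosomes to the outer kinetochore, had 28.5 and 31.2 FPKM, and Cenpt, the other link, had 20.7 and 19.5. In the group of Cenph, Cenpi, Cenpk and Cenpm, levels ran from Cenph with 45.6 and 48.8 FPKM over Cenpm (28.6 and 26.3) and Cenpi (21.1 and 21.0) to Cenpk with 12.9 and 13.3. The values of these 4 genes, whose proteins form 1 subcomplex, did not overlap in either replicate. Cenpk shares 234 bases of its span with Ppwd1 (mean 23.2 FPKM) on the opposite strand, and the part of that overlap in its value was not tested. Cenpn, which binds CENP-A nucleosomes, had 21.5 and 21.1 FPKM and was 8.06-fold and 7.23-fold above its partner Cenpl, the lowest member. The span of Cenpn lies wholly within that of Cmc2 (mean 15.1 FPKM) on the opposite strand, and whether strand was used in counting is not given, so its level is uncertain. Cenpb, which binds a DNA motif in centromeric satellites, had 18.8 and 15.7 FPKM, the widest relative gap between replicates among the members.

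Outer kinetochore genes included both the highest member and several low ones (role median 36.1 FPKM). Within the NDC80 complex, Ndc80 (42.5 and 42.0 FPKM) and Spc25 (41.2 and 42.8) overlapped, Nuf2 was lower (30.1 and 30.2) and Spc24 higher (116 and 107). Spc24 exceeded Nuf2 3.85-fold in replicate 1 and 3.55-fold in replicate 2, although the 4 proteins form the complex in equal numbers. Mis12 (17.6 and 17.9 FPKM) and Dsn1 (17.7 and 18.1), subunits of the MIS12 complex that joins the inner and outer layers, were indistinguishable, with a ratio of Dsn1 to Mis12 of 1.002 and 1.007. Mis12 shares 274 bases of its span with Derl2 (mean 27.4 FPKM). Cenpe, a kinesin that carries chromosomes to the metaphase plate, had 14 and 15.0 FPKM, and Cenpf, a large protein of the outer corona, 15.5 and 15.5. Knstrn, a spindle and kinetochore protein of the astrin complex, had 57.7 and 51.1 FPKM.

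**Figure D5:**
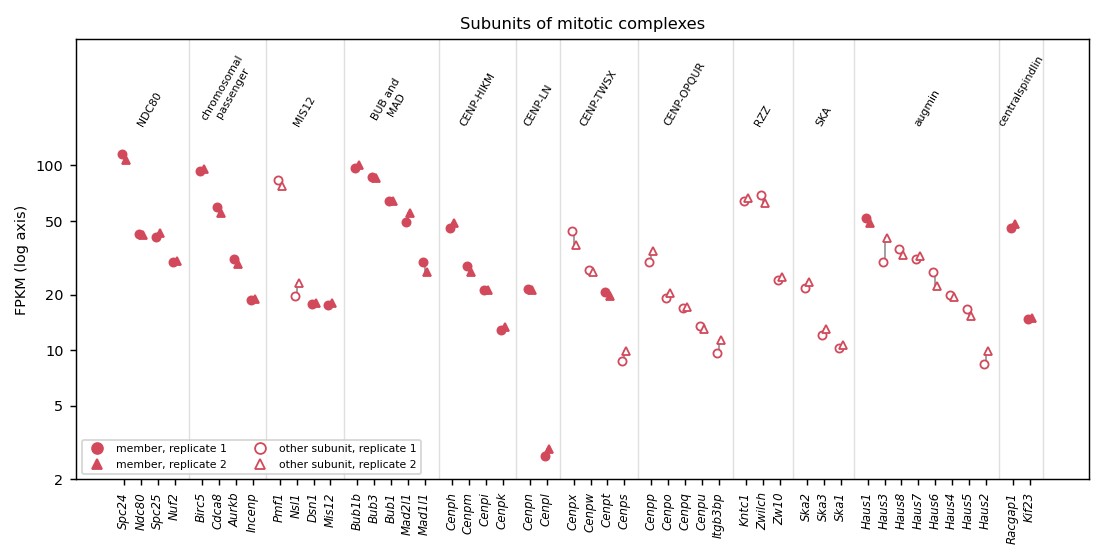
FPKM (log axis) of the subunits of 12 mitotic complexes or protein groups in replicate 1 (circles) and replicate 2 (triangles), with members filled and other subunits open. Subunits of 1 complex differ by several fold in both replicates, as in the passenger complex from Birc5 (92.8 and 95 FPKM) down to Incenp (18.7 and 18.9 FPKM), while Mis12 and Dsn1 coincide.

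Spindle motors and microtubule proteins had the narrowest range of the 8 roles, 2.30-fold from Kif18a with 33.2 and 36.9 FPKM to Tacc3 with 78.7 and 82.3 (role median 55.3 FPKM). Kif11, the motor that pushes spindle poles apart, had 63.1 and 66.2 FPKM, and Kif2c, a kinesin that depolymerises microtubules at wrong attachments, had 54.0 and 54.7. Tpx2, which targets and activates Aurora A on the spindle, had 55.7 and 57.0 FPKM, and Kif22, a motor that moves chromosome arms, had 50.4 and 55.2. Tacc3 and Ckap5 act together on spindle microtubules, and Tacc3 was 1.37-fold and 1.33-fold above Ckap5 (57.3 and 61.7 FPKM). Haus1, a subunit of the augmin complex that seeds microtubules inside the spindle, had 51.6 and 49.0 FPKM. It overlaps by 118 bases with Atp5a1, which had a mean of 769 FPKM, and the part of that overlap in its value was not tested. The other 7 augmin genes had lower means, down to Haus2 with 8.46 and 9.95 FPKM.

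Midzone and cytokinesis genes had a median of 47.0 FPKM. Ect2, which activates RhoA at the cleavage furrow, had 85.8 and 93.6 FPKM, and Prc1, which bundles midzone microtubules, had 75.4 and 76.9. Centralspindlin consists of the motor Kif23 and the GTPase-activating protein Racgap1, and their levels differed: Racgap1 had 45.6 and 48.4 FPKM and Kif23 had 14.7 and 15.0, a ratio of 3.10 and 3.22. Kif20a, which brings the passenger complex to the midzone, had 77.9 and 79.3 FPKM and Kif4, the chromokinesin that binds Prc1, 24.7 and 24.7. Anln, a scaffold of the contractile ring, had 45.3 and 46.1 FPKM. The span of Prc1 overlaps that of Rccd1 (mean 9.78 FPKM) over 21669 bases, and Kif20a overlaps Cdc23 (mean 92.1 FPKM) over 4930 bases, so both levels are uncertain if strand was ignored. In all, 19 of the 52 spans overlapped another RefSeq gene. For 7 of them that gene had at least 0.1 times the level of the member. Partners without an FPKM value, such as Gm52438 over 62763 bases of Kif4, could not be counted there. Overlaps were not counted over all genes, so neither number is read as a trait of the members.

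Other genes of the same pathway, taken as 5 lists, were nearly all detected, at a lower median. These lists too were chosen with earlier results of these data known. Of these 68 genes 67 were detected, the exception being Kif2b, a testis-enriched kinesin listed at 0 in both replicates, and 56 had at least 10 FPKM in both. Their median was 26.8 FPKM (27.6 in each replicate alone). Among 13 further centromere genes Cenpa, the centromeric histone, and its chaperone Hjurp led with means of 101 and 50.3 FPKM, and Itgb3bp and Cenps were lowest at 10.6 and 9.31. Of 10 further outer kinetochore genes Pmf1 (80.3 FPKM) and the checkpoint protein Kntc1 (65.6 FPKM) led, with Ska3 and Ska1 lowest at 12.5 and 10.5. Pmf1 was 4.70-fold and 4.32-fold above Mis12, a partner in the same complex.

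The 16 APC/C subunits and regulators had a median of 43.7 FPKM, with Anapc5 (202 FPKM) and Cdc23 (92.1 FPKM) highest and Anapc2 (9.47 FPKM), the catalytic cullin, and Anapc10 (7.20 FPKM) lowest. Of 24 further spindle and centrosome genes, Dlgap5 and Hmmr were highest at means of 87.5 and 61.4 FPKM. The lowest detected was Cenpj, a centriole assembly gene, at 2.50 FPKM. Of 5 further genes of separation and cytokinesis, Cep55, which recruits the abscission machinery, and Pttg1ip led at 56.5 and 54.7 FPKM, with Cit and Sgo2b lowest at 12 and 2.87. No list was tested against another, and these medians describe the same pair of libraries.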

How the data were processed

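Per the labels' protocols, total RNA isolated with TRIzol was depleted of ribosomal RNA with Ribo-Zero Gold and made into stranded TruSeq libraries for the HiSeq system. The authors deposited gene-level FPKM in 1 table with 2 columns, which match the sample descriptions. CASAVA, TopHat2 and Cufflinks and the builds mm10 and GRCm38 are named in the submitters' processing notes. Versions, annotation release, strand setting and depth were not given in the sources used here. Among 2288 genes with a mean under 0.1 FPKM, ratios between replicates clustered within 0.01 log2 units of ratios of whole numbers, most for a relative worth per read of 1.00 (67.0% of genes, against a median of 11.1% over other worths), so a read counted nearly alike in both. No counting interval was computed for FPKM.

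Identifiers were matched to symbols for 28256 genes. Types, spans and promoter windows are RefSeq's on GRCm38.p6, matched by symbol. Members, roles and gene lists were chosen with earlier results of these data known, and the complexes and gene pairs compared were grouped by textbook composition after the values were seen. All members are named, with the 2 highest and 2 lowest genes of each further list. Fzr1, Sgo2a, Haus2, Knl1, Oip5 and Nusap1, and the level limits of 25, 50 and 100 FPKM, were chosen after their values were seen. A planned comparison of protein features was not run. A single group of 2 replicates allows no test, so values are given per replicate, with medians and counts beside those of all genes. The motif search recovered 200 of 200 motifs implanted in simulated sequences of 300 bases. Alternatives covered detection limits, rescaling to TPM, pseudocounts, leaving out each replicate, and the window and strand of the motif search. Python 3.11.15, pandas 2.3.3, NumPy 2.4.6, SciPy 1.17.1 and matplotlib 3.10.9 were used.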

Additional observations from a re-analysis of the deposited data

How the results depend on the processing

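The counts of detected members and of detected other mitosis genes stayed within 1.5 times under detection limits of 0.1, 5 and 10 FPKM (50 to 52 of 52 members, and 56 to 67 of 68 other genes), with either replicate alone and after rescaling to TPM. Rescaling, which raises every value by the same factor per replicate, moved the members' median to 44.9 and the role medians to 68.4 (checkpoint), 61.3 (passenger complex), 59.0 (spindle), 50.1 (midzone), 38.5 (outer kinetochore), 32.2 (kinases), 27.2 (separation) and 22.5 (inner kinetochore), in the order they had before. With replicate 2 alone the spindle median (56.1) stood above that of the passenger complex (55.3), so these neighbours in the order are not resolved. The outer kinetochore median was 35.6 to 36.1 with either replicate alone. Checkpoint genes exceeded inner kinetochore genes 3.34-fold and 3.53-fold by means of log2(FPKM + 1) and log2(FPKM + 0.01). A pseudocount of 1 lowered the spread to 4.80-fold in the passenger complex and 12.7-fold among inner kinetochore genes, since it weighs most on low values such as Cenpl. The share of members with the homology region was 23.9% in the 150 bases before the start alone (11.2% of all genes), where the matches after the start are left out, and 37.0% on the strand of the gene alone (13.2% of all genes). CCAAT on that strand was found for 50% (23.7% of all genes), and TATAAA within 50 bases of the start for 0% of 46 members (5.77% of all genes). With 1 window per gene the shares of members were 56.5% for the homology region, 67.4% for CCAAT and 2.17% for TATAAA, against 19.5%, 38.0% and 14.2% of all genes. The ratio between replicates moved by less than its spread over the members under each pseudocount and centring. No paired analysis was possible because there is 1 group. The planned protein features were not run. Without read numbers, the precision of single values rests on 2 replicates.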

Other observations

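Chromosome 2 held 10 of the 52 members (19.2%), against 8.33% of the 20331 RefSeq coding genes in the table. They are Spc25, Ckap5, Kif18a, Bub1b, Knstrn, Bub1, Cenpb, Tpx2, Dsn1 and Aurka, with mean levels from 17.3 FPKM for Cenpb to 99.1 FPKM for Bub1b. Bub1b (118598202 to 118641592) and Knstrn (118813988 to 118837210) are close together, and Knl1 (119047119 to 119110497), Oip5 (119609532 to 119618505) and Nusap1 (119618298 to 119650165) of the further lists lie in the same stretch. These 5 genes had mean levels of 99.1, 54.4, 15.2, 26.8 and 39.7 FPKM, so the neighbours did not share a level. The observation was made after the positions were seen and is a description.

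Over the 52 members, Spearman's rho between the RefSeq span of a gene and its mean FPKM was -0.11, and over 10281 detected coding genes it was -0.18; these points share the 2 libraries and are given without a test. Mad1l1, with the longest span among members (312920 bases), had 29.9 and 26.6 FPKM, and Cenpb, with the shortest (2779 bases), had 18.8 and 15.7 FPKM.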
